A study of Mus musculus with 9 samples.

Results

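Gene expression in BV2 cells given lipopolysaccharide (LPS) together with Pilo, as the labels call the added treatment (LPS+Pilo), was compared with that of untreated BV2 cells (Control). BV2 is an immortalized line of mouse microglia, and the labels give the genotype of every library as wildtype. The comparison used 6 of the 9 RNA-seq libraries of the series, 3 of LPS+Pilo and 3 of Control. The remaining 3, of cells given LPS alone, entered the same fit and show which differences from Control were also present without Pilo. The genes described are the 11260 that reached 1 TPM in 3 or more of the 9 libraries, where TPM is a transcript level scaled so that each library sums to the same total. The sources used here give neither the meaning of Pilo nor the doses and times of treatment. The title of the series names the M3 muscarinic receptor. As a model, the cells are 1 continuous line rather than microglia taken from brain.

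LPS, a component of the outer membrane of Gram-negative bacteria, is sensed by the TLR4 receptor complex with its co-receptors CD14 and MD-2. Adaptor proteins then activate NF-kB and MAP kinases, which switch on genes of chemokines, cytokines and enzymes, and another branch through TRIF and IRF3 induces interferon-stimulated genes. The response is limited by products of its own targets, such as inhibitors of NF-kB, phosphatases of MAP kinases and nucleases that degrade cytokine mRNA. Microglia are the resident macrophages of the brain. In inflammation they are known to lower genes of their resting state, and in neurodegeneration they take up a state marked by Trem2, Apoe and Lpl.

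Of the 11260 genes, 1143 (10.2%) were called in LPS+Pilo against Control by limma at a Benjamini-Hochberg adjusted p under 0.05. Of these, 546 genes (4.85% of those tested) were higher in LPS+Pilo and 597 (5.3%) were lower. The difference reached 1 on the log2(TPM + 1) scale for 310 of them, 196 higher and 114 lower. The LPS+Pilo and Control libraries did not overlap for 1142 of the 1143 genes, and for 30.5% of all genes tested. The median difference of all tested genes was 0.02. The number of calls depended on single libraries. It was 642 without Control replicate 3, and 735, 663 and 692 without LPS+Pilo replicates 1, 2 and 3, and quantile normalization gave 1726.

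LPS alone against Control gave 874 calls (7.76%). The 2 comparisons share the Control libraries, so their calls are not independent of each other. Both comparisons called 668 genes with the same sign, 351 higher and 317 lower, which is 58.4% of the LPS+Pilo calls and 76.4% of the LPS calls. The median difference from Control of the 351 higher genes was 0.95 in LPS+Pilo and 0.91 in LPS. For the 317 lower genes it was -0.78 in LPS+Pilo and -0.67 in LPS. The direct comparison of LPS+Pilo with LPS called 5 genes of all tested (0.0444%; 761 genes had an unadjusted p under 0.05), and 3 of the 668 were among them, namely Igf1, Hspb7 and Plau. The LPS+Pilo and LPS libraries did not overlap for 1374 of all tested genes (12.2%), the share beside which such separations of single genes stand. Leaving out Control replicate 3, LPS replicate 1 or LPS replicate 2 gave 349, 437 or 425 genes in place of 668.

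Within groups the libraries of LPS+Pilo lay closest together, with a median standard deviation over genes of 0.12 on the log2(TPM + 1) scale, against 0.20 in Control and 0.21 in LPS. Between 10726 and 11123 genes reached 1 TPM per library, and mitochondrially encoded genes took 1.85% to 2.82% of the signal. The part of the spread in the calls was not tested. The deposited table holds no read counts, so sequencing depth is unknown. In bulk RNA a lower level can mean fewer cells that express a gene or less RNA per cell, and these cannot be told apart.

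The largest increase was in Lcn2, which encodes lipocalin 2, a protein that binds bacterial siderophores. It stood at 242, 226 and 228 TPM in LPS+Pilo, whereas the Control libraries were at 0.21, 0.15 and 0.22 TPM. Its log2 fold change was 7.61 ± 0.16 (standard error, SE; limma adjusted p = 1.70e-08). Csf3 encodes G-CSF, a growth factor for granulocytes. It stood at 73.9, 80.7 and 77.3 TPM in LPS+Pilo, and each Control library lists it at 0 (limma adjusted p = 6.22e-07). For both genes every treated library lay far above every untreated one, and the LPS+Pilo libraries lay inside the range of the LPS libraries (154 to 256 TPM for Lcn2, 38.3 to 90.5 TPM for Csf3).

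Saa3, an acute-phase gene, stood at 259, 277 and 273 TPM against 6.16, 5.04 and 7.90 TPM in Control, a log2 fold change of 5.22 ± 0.14 (limma adjusted p = 5.22e-08). The LPS libraries reached 182 to 229 TPM, so that all 3 LPS+Pilo libraries were above them, but the difference of 0.42 ± 0.14 between the treated groups did not pass (limma adjusted p = 0.555). Ccl7, a chemokine gene whose product attracts monocytes, stood at 96.1, 67.2 and 91.6 TPM against 2.57, 2.14 and 1.93 TPM in Control (4.73 ± 0.14, limma adjusted p = 8.88e-08). Its LPS libraries were higher, at 147 to 151 TPM, and the difference of -0.82 ± 0.14 between LPS+Pilo and LPS missed the threshold (limma adjusted p = 0.207). Cxcl2, a neutrophil chemokine gene, stood at 18.02, 19.72 and 18.51 TPM against 0.27, 0.05 and 0.11 TPM in Control (4.11 ± 0.32, limma adjusted p = 5.40e-05), with 4.47 to 15.5 TPM in LPS. All 3 LPS+Pilo libraries were above the LPS libraries, but the difference of 1.09 ± 0.32 did not pass (limma adjusted p = 0.502).

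Tnf, which encodes a central inflammatory cytokine, stood at 159, 154 and 184 TPM against 11.1, 13.1 and 11.5 TPM in Control (3.70 ± 0.10, limma adjusted p = 5.22e-08). Pilra and Pilrb1 encode paired immunoglobulin-like receptors of myeloid cells, one inhibitory and its partner activating. Pilrb1 rose by 3.49 ± 0.13, from 0.58 to 0.83 TPM in Control to 16.8 to 18.7 TPM, and Pilra by 3.25 ± 0.14, from 1.42 to 1.87 TPM to 23.4 to 26.1 TPM. Acod1, the gene of the enzyme that makes itaconate, rose by 3.48 ± 0.27 to 215 to 260 TPM. Nfkbiz (3.45 ± 0.26), the gene of an atypical IkB protein, rose to 19.96 to 20.71 TPM. The feedback gene Zc3h12a (3.30 ± 0.11), which encodes an RNase that degrades cytokine mRNA, rose to 28.3 to 29.3 TPM. Ccl2, the gene of the main monocyte chemoattractant, stood at 618, 496 and 559 TPM against 63.3, 73.8 and 71.4 TPM (2.98 ± 0.12). Its LPS libraries reached 768 to 989 TPM and did not overlap those of LPS+Pilo (-0.68 ± 0.12, limma adjusted p = 0.212).

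**Figure D1:**
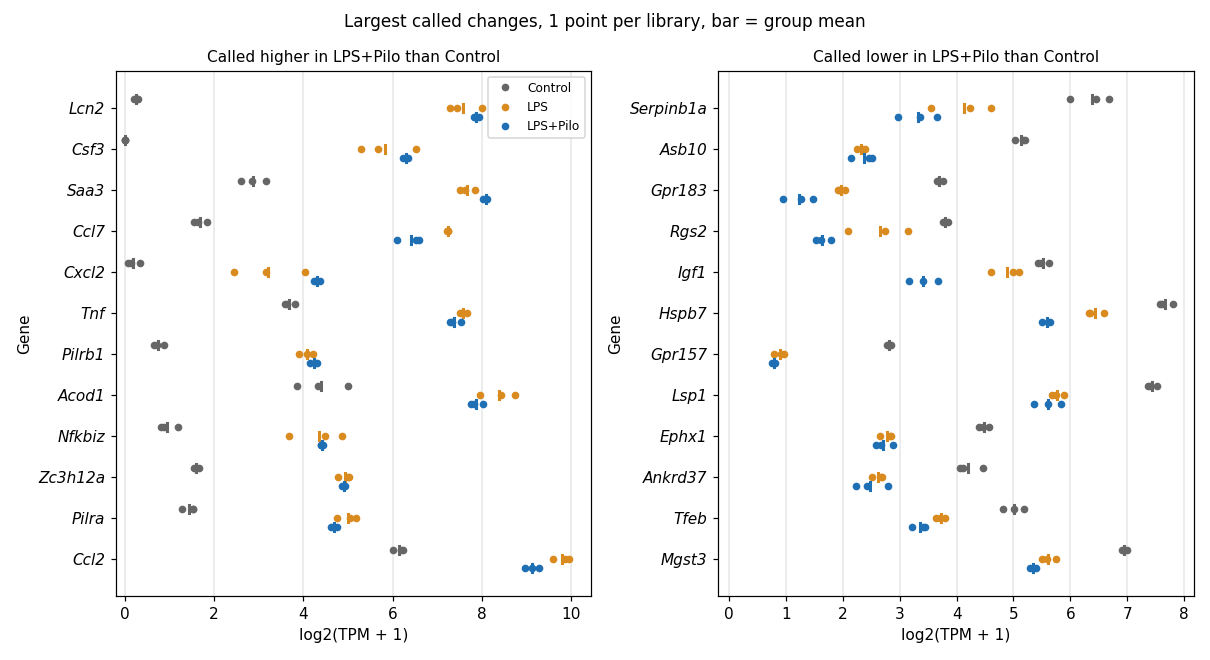
Level in log2(TPM + 1) (horizontal axis) of the 12 largest increases (left panel) and 12 largest decreases (right panel) of LPS+Pilo against Control, with 1 point per library in the 3 groups and a bar at each group mean. The treated groups lie close together and apart from Control for most of the genes. Among the decreases, all LPS libraries lie between Control and LPS+Pilo for Gpr183, Rgs2, Igf1, Hspb7, Tfeb and Mgst3. Among the increases they do so for Saa3 and Cxcl2.

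Among the 12 decreases that the naming rule took (called, at least 5 TPM in the higher group, groups apart, established symbol), the largest was in Serpinb1a, which encodes an inhibitor of neutrophil serine proteases. It stood at 62.5, 102 and 86.6 TPM in Control and at 11.6, 6.80 and 9.26 TPM in LPS+Pilo, a log2 fold change of -3.05 ± 0.29 (limma adjusted p = 1.75e-04). Asb10, a gene of an ankyrin-repeat and SOCS-box protein, fell from 31.5 to 35.9 TPM to 3.43 to 4.68 TPM (-2.76 ± 0.13, limma adjusted p = 2.70e-06). The 12 included 3 genes of G protein signalling, namely Gpr183, Rgs2 and Gpr157.

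Gpr183, the receptor of an oxysterol that guides immune cells, stood at 12.6, 11.8 and 11.6 TPM in Control and at 1.77, 0.92 and 1.40 TPM in LPS+Pilo (-2.47 ± 0.16, limma adjusted p = 1.60e-05), with 2.78 to 3.08 TPM in LPS. Rgs2, whose product limits Gq signalling, fell from 12.6 to 13.4 TPM to 1.86 to 2.44 TPM (-2.16 ± 0.24, limma adjusted p = 4.42e-04), with 3.23 to 7.82 TPM in LPS. In both genes all LPS+Pilo libraries were below all LPS libraries (these groups did not overlap for 12.2% of all tested genes). Neither difference passed directly, at -0.73 ± 0.16 for Gpr183 (limma adjusted p = 0.318) and -1.01 ± 0.24 for Rgs2 (limma adjusted p = 0.353). The orphan receptor gene Gpr157 fell from 5.88 to 6.21 TPM to 0.69 to 0.74 TPM (-2.03 ± 0.13), against 0.73 to 0.95 TPM in LPS.

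Others of the 12 were Lsp1 (-1.83 ± 0.12), which encodes an actin-binding protein of leukocytes, the epoxide hydrolase gene Ephx1 (-1.77 ± 0.13) and Ankrd37 (-1.73 ± 0.17), a gene known to respond to hypoxia. Tfeb, the master transcription factor gene of lysosome synthesis, stood at 31.4, 27.1 and 35.3 TPM in Control and at 9.62, 8.26 and 9.90 TPM in LPS+Pilo (-1.65 ± 0.13, limma adjusted p = 4.96e-05). Mgst3, a microsomal glutathione transferase gene, fell from 119 to 127 TPM to 38.0 to 41.4 TPM (-1.60 ± 0.09). The groups did not overlap for any of the 24 genes, as the naming rule required, and each of the 24 calls held in every alternative setting that tested the gene.

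Promoter sequences were examined because NF-kB binds kB sites in many genes that LPS induces. RefSeq promoters of build GRCm38.p6 were matched by symbol to 8156 genes (10437 promoters), and the 250 bases before the start were searched on both strands for 3 motifs. The kB motif was GGG, any 2 bases, TT, any base and CC. The core of the interferon response element was GAAA, any 2 bases and GAAA, and the AP-1 motif was TGANTCA. Matches of different motifs overlapped in 3 promoters. The kB letters were found in 4.92% of the promoters of all tested genes, in 10.3% of the 339 promoters of genes higher in both comparisons and in 14.6% of the 144 promoters of those higher by at least 1. In the 315 promoters of genes lower in both the share was 3.81%. Genes called in LPS+Pilo only had the letters in 9.04% of 177 promoters of higher genes and in 3.94% of 279 promoters of lower genes. The interferon element was found in 2.67% of all tested promoters and in 5.31% of those higher in both, and the AP-1 letters in 4.32% and 7.96%. In promoters of genes lower in both these 2 shares were 1.9% and 4.44%. Genes called in LPS+Pilo only had 5.08% and 6.21% if higher and 3.23% and 7.17% if lower. The AP-1 letters were thus also above the share of all tested promoters in a set of lower genes. Genes called in LPS and not in LPS+Pilo had the kB letters in 5.15% of 97 promoters if higher and in 4.3% of 93 if lower. Some genes have several promoters, and the 339 promoters belong to 253 genes. The sets also differed in base composition. The median GC share was 60% in all tested promoters, 56% in those higher in both and 54% in those higher by at least 1. All these are shares of letters in a fixed window and were not tested, nor was the part of base composition in them.

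Of the 12 largest increases 8 were matched to a promoter (not Csf3, Ccl7, Nfkbiz and Ccl2), and 1 of the 8, Cxcl2, held the kB letters. Of the 12 largest decreases 10 were matched and 0 held them. Printed here, to show where matches lie, are the promoters of the 4 genes with the largest increases among genes higher in both comparisons whose window held the kB letters, so they were chosen for the match. Each run gives the 250 bases before the start, 5′ to 3′ on the strand of the gene, with the kB match in capitals. Il1rn and Nfkbid have other listed starts whose windows held no kB match, and these are not printed. The windows are chr5:90903649-90903898 for Cxcl2, chr2:24345121-24345370 for Il1rn, chr5:30012864-30013113 for Il6 and chr7:30422156-30422405 for Nfkbid, all on the plus strand of GRCm38.p6, a build earlier than the GRCm39 named for the data.
Cxcl2: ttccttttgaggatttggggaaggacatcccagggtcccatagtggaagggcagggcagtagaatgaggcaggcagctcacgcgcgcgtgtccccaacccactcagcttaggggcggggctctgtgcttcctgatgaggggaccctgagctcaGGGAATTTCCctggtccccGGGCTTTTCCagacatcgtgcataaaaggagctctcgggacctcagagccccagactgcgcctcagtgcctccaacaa
Il1rn: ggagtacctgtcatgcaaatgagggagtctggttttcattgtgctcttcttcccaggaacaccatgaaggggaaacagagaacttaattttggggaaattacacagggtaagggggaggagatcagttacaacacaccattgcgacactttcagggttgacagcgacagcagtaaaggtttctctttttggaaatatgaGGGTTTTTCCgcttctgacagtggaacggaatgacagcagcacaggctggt
Il6: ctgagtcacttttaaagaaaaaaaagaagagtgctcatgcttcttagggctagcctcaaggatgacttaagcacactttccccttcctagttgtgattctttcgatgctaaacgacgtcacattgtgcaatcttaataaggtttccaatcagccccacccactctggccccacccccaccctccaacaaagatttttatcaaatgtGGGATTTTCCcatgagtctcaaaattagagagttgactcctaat
Nfkbid: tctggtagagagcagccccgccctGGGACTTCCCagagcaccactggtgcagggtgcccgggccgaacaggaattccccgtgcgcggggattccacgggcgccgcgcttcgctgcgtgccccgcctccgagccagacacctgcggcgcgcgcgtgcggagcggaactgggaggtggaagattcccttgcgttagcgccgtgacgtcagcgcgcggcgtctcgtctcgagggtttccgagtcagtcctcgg
Counted back from the start, the matches begin at -97 and -78 in Cxcl2, -51 in Il1rn, -44 in Il6 and -226 in Nfkbid. Il1rn encodes the antagonist of the IL-1 receptor, and its level stood at 106, 104 and 97.1 TPM in LPS+Pilo against 13.2, 14.6 and 9.94 TPM in Control (2.95 ± 0.19, limma adjusted p = 1.60e-05). Il6, an inflammatory cytokine gene, was listed at 0, 0.05 and 0 TPM in Control and at 5.32, 3.57 and 5.38 TPM in LPS+Pilo (limma adjusted p = 5.63e-04). Nfkbid, another atypical IkB gene, rose from 7.75 to 9.28 TPM to 41.5 to 47.8 TPM (2.28 ± 0.10).

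Genes of secreted ligands came first by the share of members called. The counts for this and the following lists stand beside 4.85% of all tested genes called higher and 5.3% called lower. Of 20 chemokine genes listed, 9 stayed under 1 TPM in all 9 libraries and were not tested. Of 11 chemokine genes tested, 9 rose, 1 fell and 1 did not pass, with a median of 2.33 against 0.02 for all genes, and the counts were the same without each library in turn. The most abundant of them, Ccl3 and Ccl4, whose products attract monocytes, stood at 4237 to 4656 TPM and at 1535 to 1563 TPM in LPS+Pilo, against 780 to 1006 TPM and 242 to 267 TPM in Control (2.33 ± 0.12 and 2.60 ± 0.08). Ccl5, a T-cell chemoattractant, rose by 2.55 ± 0.21, Ccl9 by 1.61 ± 0.18 and Ccl12 by 1.90 ± 0.28. Cxcl10, an interferon-responsive ligand of CXCR3, stood at 39.4, 32.8 and 39.2 TPM against 13.3, 7.61 and 11.5 TPM (1.72 ± 0.24, limma adjusted p = 0.00209). Its LPS libraries, at 40.3 to 76.2 TPM, all lay above those of LPS+Pilo, and the direct difference of -0.58 ± 0.24 did not pass (limma adjusted p = 0.705). The chemokine that fell was Cxcl14 (-0.55 ± 0.09), and the member that did not pass was Ccl6, at 8.63 to 9.01 TPM against 6.59 to 7.36 TPM (0.28 ± 0.12, limma adjusted p = 0.212).

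Of 13 cytokine and growth factor genes, 9 rose and 2 fell, with a median of 1.16. Besides Csf3, Tnf, Il1rn and Il6 they included Ebi3, a subunit of IL-27 and IL-35 (1.98 ± 0.11), and Osm, the gene of oncostatin M (1.16 ± 0.17). Il1b stayed low, at 2.97, 1.03 and 1.31 TPM against 0.37, 0.04 and 0 TPM, and its call (limma adjusted p = 0.0133, range over alternatives 0.00798 to 0.0564) was lost without Control replicate 3 (adjusted p = 0.0564). Il10 did not reach 0.05 TPM in any library. The members that fell were Csf1 and Il15, both called in LPS+Pilo only. Without Control replicate 3 or any 1 LPS+Pilo library the count of lower members was 1.

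Of 19 effector genes 14 rose and 0 fell, with a median of 1.21. Nos2, which encodes inducible nitric oxide synthase, stood at 8.24, 12.3 and 6.69 TPM against 0.11, 0.08 and 0.02 TPM (3.20 ± 0.33, limma adjusted p = 3.04e-04), with 4.32 to 12.9 TPM in LPS. Ptgs2, the gene of the inducible cyclooxygenase, stood at 4.27, 4.25 and 4.20 TPM against 0.92, 0.58 and 0.73 TPM (1.59 ± 0.27, limma adjusted p = 0.00577). Of 16 genes of NF-kB subunits, inhibitors and kinases 7 rose, among them the IkB genes Nfkbia (1.39 ± 0.13) and Bcl3 (2.87 ± 0.17). Nfkb1, the p105 subunit gene, did not pass (0.62 ± 0.18, limma adjusted p = 0.0659, range over alternatives 0.0112 to 0.198). Of 20 feedback regulators 11 rose, with a median of 0.86, including the cytokine signalling inhibitors Cish (1.75 ± 0.21) and Socs3 (1.72 ± 0.16). None of these 3 lists had a member that fell. Of 13 genes of the LPS receptor complex and its adaptors only the co-receptor gene Cd14 passed, at 318 to 334 TPM against 114 to 149 TPM (1.31 ± 0.15), while Tlr4 itself stood at 2.15, 2.22 and 1.79 TPM against 1.66, 1.52 and 2.08 TPM (0.15 ± 0.21). Without LPS+Pilo replicate 2 another member passed.

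**Figure D2:**
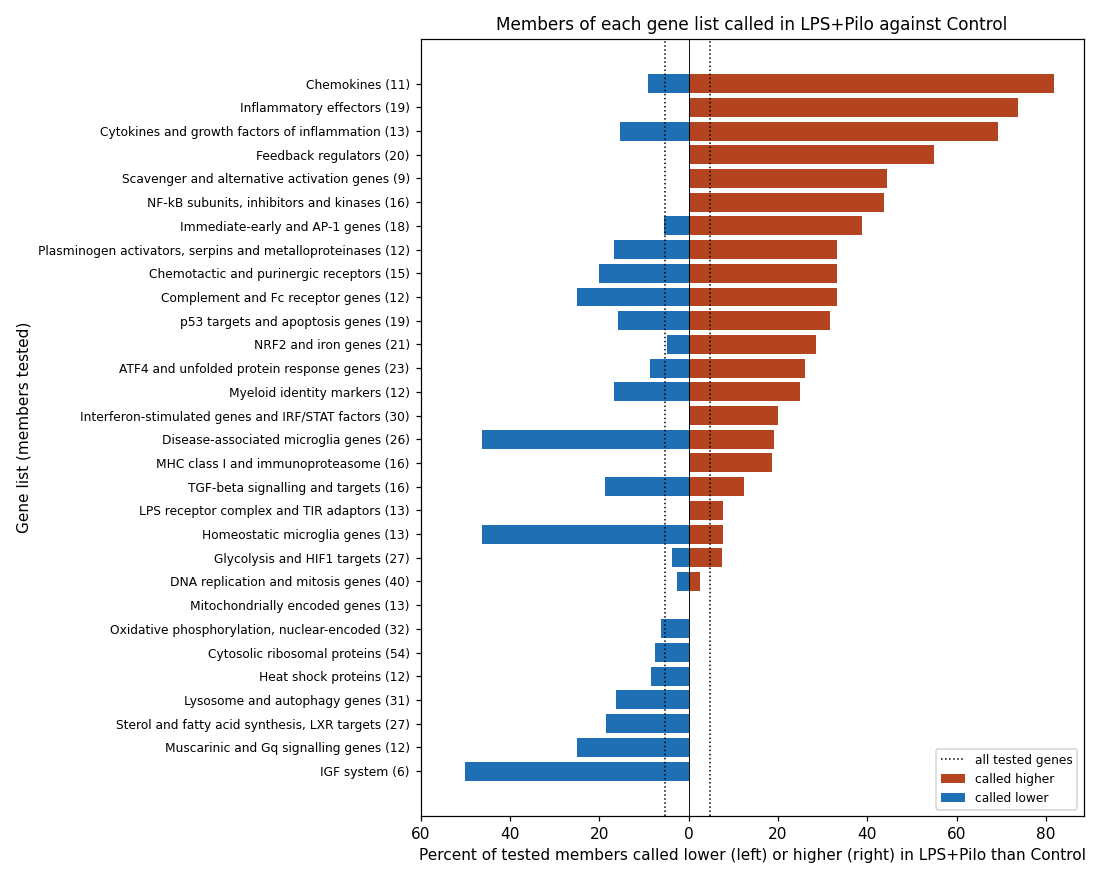
Percent of the tested members of each gene list (number tested in brackets) called higher (right) or lower (left) in LPS+Pilo than Control, with dotted lines at the share of all tested genes, 4.85% higher and 5.3% lower. Chemokines, effectors and cytokines have the longest bars to the right, and the IGF, homeostatic and disease-associated microglia lists the longest to the left.

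Genes of the interferon branch rose in part. Of 30 interferon-stimulated genes and IRF/STAT factors, 6 rose and 0 fell, with a median of 0.33. The count of higher members was 3 without any 1 of the LPS+Pilo libraries. In LPS the list had 8 higher and 0 lower members, with a median of 0.63. Directly between LPS+Pilo and LPS 0 of the 30 were called, with a median difference of -0.28. Ifitm3, a membrane protein that restricts viral entry, stood at 978, 1058 and 995 TPM against 497, 286 and 413 TPM (1.38 ± 0.19, limma adjusted p = 0.00196), and Bst2, the gene of tetherin, rose by 0.87 ± 0.15. Isg15, a ubiquitin-like modifier gene, did not pass (0.79 ± 0.22, limma adjusted p = 0.0505, range over alternatives 0.0265 to 0.156), with 107 to 141 TPM against 51.8 to 94.5 TPM in Control and 138 to 196 TPM in LPS. Of 16 genes of MHC class I and the immunoproteasome 3 rose, including B2m, the light chain shared by class I molecules (0.73 ± 0.14), and H2-T23 (0.78 ± 0.12). Of 12 complement and Fc receptor genes 4 rose and 3 fell, with the inhibitory Fc receptor gene Fcgr2b (1.08 ± 0.14), the complement gene C3 (1.35 ± 0.24) and properdin (Cfp, 1.57 ± 0.12) among the first and C1qc (-1.36 ± 0.20) among the second.

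Among genes of microglial identity, more members fell than rose. Of 20 homeostatic genes listed, 7 stayed under 1 TPM in all 9 libraries and were not tested. Of 13 homeostatic genes tested 6 fell and 1 rose, with a median of -0.45, and of 26 genes of the disease-associated state 12 fell and 5 rose, with a median of -0.39. Both counts of lower members stayed at 5 to 6 and 12 to 13 without each library in turn. In LPS the homeostatic list had 4 lower and 2 higher members, and the disease-associated list 6 lower and 6 higher. These counts of calls do not show that the treatments differ. Directly between LPS+Pilo and LPS, 0 of the 13 homeostatic and 1 of the 26 disease-associated members were called. Cx3cr1, the fractalkine receptor gene, stood at 1.20, 1.15 and 1.04 TPM against 4.57, 2.71 and 2.97 TPM (-1.03 ± 0.18, limma adjusted p = 0.00582), whereas the LPS libraries, at 2.63 to 3.22 TPM, overlapped those of Control. Csf1r, the receptor gene on which microglia depend for survival, stood at 34.2, 38.8 and 36.7 TPM against 63.4, 51.0 and 60.4 TPM (-0.65 ± 0.11, limma adjusted p = 0.00489). The member that rose was Itgam, the integrin gene of CD11b (1.42 ± 0.26), and without Control replicate 2 there were 2.

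The labelled cell type was checked on markers of microglia and macrophages. The myeloid genes Csf1r, Tyrobp and Trem2 stood at 34.2 TPM or more in every library, but some defining microglia markers were barely present: Tmem119 stood at 2.15 to 3.05 TPM, P2ry12 at or under 0.40 TPM and Aif1 at 0.07 to 1.36 TPM over all 9 libraries. The summed level of the 12 myeloid markers was 3586 to 3625 TPM in LPS+Pilo, 3783 to 4037 in Control and 3787 to 3970 in LPS.

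Among the genes of the disease-associated state, Trem2, a lipid-sensing receptor gene, stood at 226, 213 and 281 TPM against 593, 591 and 589 TPM in Control (-1.31 ± 0.12, limma adjusted p = 1.11e-04), with 304 to 375 TPM in LPS. Its signalling partner gene Tyrobp fell by 0.78 ± 0.08 on the log2 scale. Apoe, the apolipoprotein E gene, fell to 863 to 927 TPM from 1801 to 2066 TPM (-1.12 ± 0.08), and its LPS libraries, at 863 to 932 TPM, covered the same range. Cd9, a tetraspanin gene (-0.83 ± 0.09), and Cst7, the gene of cystatin F (-0.65 ± 0.07), fell in LPS+Pilo and in LPS. Spp1, the gene of osteopontin, rose to 1174 to 1510 TPM from 605 to 768 TPM (1.05 ± 0.16, limma adjusted p = 0.00336). Lilrb4a, an inhibitory receptor gene, also rose (1.12 ± 0.11).

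Igf1, Hspb7 and Plau fell in both comparisons and were also called directly between the treated groups. Igf1, an insulin-like growth factor gene, stood at 44.0, 48.4 and 42.2 TPM in Control, at 23.3, 33.2 and 30.6 TPM in LPS and at 11.8, 7.99 and 9.57 TPM in LPS+Pilo. The difference from Control was -2.10 ± 0.16 (limma adjusted p = 5.03e-05) and that from LPS -1.48 ± 0.16 (limma adjusted p = 0.0216). In LPS against Control the difference of Igf1 was -0.62 ± 0.16, with an adjusted p near the threshold (limma adjusted p = 0.0488). Hspb7, a small heat shock protein gene, stood at 196, 224 and 189 TPM in Control, at 79.7 to 95.7 TPM in LPS and at 47.9, 44.1 and 49.0 TPM in LPS+Pilo (-2.08 ± 0.10 from Control, limma adjusted p = 2.70e-06; -0.84 ± 0.10 from LPS, adjusted p = 0.0342). Plau, the gene of urokinase, which activates plasminogen, stood at 118, 114 and 104 TPM in Control, at 72.9 to 78.0 TPM in LPS and at 51.2, 46.1 and 46.5 TPM in LPS+Pilo (-1.21 ± 0.09 from Control, limma adjusted p = 3.36e-05; -0.66 ± 0.09 from LPS, adjusted p = 0.0482). For these 3 genes the groups formed 3 ranges that did not overlap. The calls against Control in LPS+Pilo held in every alternative, whereas the direct calls were lost in many. The adjusted p of the direct comparison reached 0.169 for Igf1 (without LPS+Pilo replicate 3), 0.186 for Hspb7 (median-ratio scaling) and 0.328 for Plau (without LPS+Pilo replicate 3), from lowest values of 0.0224, 0.0350 and 0.0455. All 3 were lost without LPS replicate 2 or 3 or any 1 LPS+Pilo library, Hspb7 and Plau also without LPS replicate 1 or Control replicate 3, and Plau without Control replicate 2. Of 6 tested genes of the IGF system 3 fell and 0 rose: Igf1, Pik3ip1 (-1.56 ± 0.14), an inhibitor of PI3-kinase, and Igfbp4 (-1.07 ± 0.13), a binding protein. Of 12 plasminogen and metalloproteinase genes 4 rose, among them the urokinase receptor gene Plaur (1.12 ± 0.11), and 2 fell. Hspb7 was the 1 gene called among 12 heat shock protein genes.

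Muscarinic receptor genes were at or near 0. The table lists Chrm1, Chrm2 and Chrm5 at 0 throughout, Chrm3, which encodes the M3 receptor, did not exceed 0.02 TPM, and Chrm4 stood at 0.08 to 0.36 TPM. A level of 0 in this table is a listed value, and the reads behind it are unknown. Of 12 tested genes of Gq signalling 0 rose and 3 fell (Rgs2, Rgs1 and Gna11), and the count was 1 without Control replicate 3 or without LPS+Pilo replicate 2.

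Genes of stress and metabolism followed. Of 21 NRF2 and iron genes 6 rose, including Slc7a11, the cystine transporter gene, at 9.17 to 9.63 TPM against 0.66 to 1.79 TPM (2.37 ± 0.29, limma adjusted p = 9.37e-04), and the transferrin receptor gene Tfrc (0.87 ± 0.16), and 1 fell. Hmox1, the heme oxygenase gene, stood at 176, 184 and 176 TPM against 190, 184 and 180 TPM (-0.05 ± 0.08, limma adjusted p = 0.746), whereas its LPS libraries reached 219 to 253 TPM. Of 23 genes of ATF4 and the unfolded protein response 6 rose and 2 fell. Trib3, a pseudokinase gene and ATF4 target, stood at 110, 89.1 and 126 TPM against 41.3, 25.7 and 29.3 TPM (1.74 ± 0.21, limma adjusted p = 8.96e-04), and the asparagine synthetase gene Asns rose by 0.74 ± 0.11. The count of higher members was 3 without Control replicate 3 or without LPS+Pilo replicate 2 or 3, and that of lower members 1 without LPS+Pilo replicate 2. Of 19 genes of p53 targets and apoptosis 6 rose and 3 fell, with the growth arrest gene Gadd45a (2.00 ± 0.28) and Sesn1 (-1.16 ± 0.19) as the extremes. Without LPS+Pilo replicate 3 the count of lower members was 1.

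Of 31 lysosome and autophagy genes 5 fell and 0 rose, with a median of -0.13. They included Atp6v0d2, a subunit of the proton pump, at 0.57, 0.58 and 0.92 TPM against 4.59, 3.82 and 3.71 TPM (-1.58 ± 0.16, limma adjusted p = 2.38e-04), and the saposin precursor gene Psap, at 382 to 406 TPM against 525 to 625 TPM (-0.56 ± 0.10, limma adjusted p = 0.00849). Of 27 genes of sterol and fatty acid synthesis 5 fell, but the count was 0 when Control replicate 3 or LPS+Pilo replicate 1 or 2 was left out, and 1, 2 and 1 when Control replicate 1, Control replicate 2 or LPS+Pilo replicate 3 was. Cytosolic ribosomal proteins (4 of 54 lower), nuclear-encoded oxidative phosphorylation genes (2 of 32 lower) and genes of replication and mitosis (1 higher and 1 lower of 40) had shares near those of all genes, and 0 of 13 mitochondrially encoded genes passed. The ribosomal count was 0 without LPS+Pilo replicate 2 or 3, 1 without Control replicate 1 or 2 or LPS replicate 1 or 2 and under median-ratio scaling, and 2 without Control replicate 3. The oxidative phosphorylation count was 1 without Control replicate 2 or 3, LPS replicate 2 or LPS+Pilo replicate 1 or 2, and 5 under quantile normalization. The lower replication and mitosis genes numbered 2 without LPS replicate 3, 5 under median-ratio scaling and 4 under quantile normalization. Of all tested genes 4.85% were called higher and 5.3% lower. Of 27 genes of glycolysis and HIF1 targets 2 rose and 1 fell, and of 16 TGF-beta genes 2 rose and 3 fell. The count of higher members was 1 without LPS+Pilo replicate 2 for both lists, without Control replicate 3 for glycolysis and without Control replicate 2 or LPS+Pilo replicate 3 for TGF-beta. Of 18 immediate-early genes 7 rose, including Ier3 (2.85 ± 0.27) and the AP-1 subunit gene Fosl1 (2.17 ± 0.18), and 1 fell. Of 15 chemotactic and purinergic receptor genes 5 rose and 3 fell, among these Cxcr4, the receptor gene of CXCL12 (-1.35 ± 0.19), and the count of higher members was 1 without Control replicate 2, 3 without Control replicate 3 and 2 without any 1 LPS+Pilo library. Of 9 scavenger and alternative activation genes 4 rose, and 2 without Control replicates 1 or 3 or LPS+Pilo replicates 1 or 3. Arg1 and Mrc1 of that list, markers of alternative activation, did not exceed 0.30 and 0.06 TPM in any library.

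The second question was which genes differed from Control under LPS+Pilo and not under LPS. They numbered 474, 194 higher and 280 lower, or 41.5% of the LPS+Pilo calls. Their median difference from Control was 0.68 for the higher genes, against 0.40 in LPS, and -0.56 for the lower genes, against -0.35 in LPS. A call in 1 comparison and its absence in the other does not show that the treatments differ. Of the 474 genes 336 had an unadjusted p under 0.05 in LPS against Control, and for 172 the adjusted p there lay between 0.05 and 0.10. None of the 474 passed the direct limma comparison of LPS+Pilo with LPS (148 had an unadjusted p under 0.05). The count was 293 without Control replicate 3, and 259, 191 and 217 without LPS+Pilo replicates 1, 2 and 3. Fewer of the 474 were in the set each time, 141 without Control replicate 3 and 186, 142 and 144 without those LPS+Pilo replicates. Median-ratio scaling gave 558 genes, of which 239 were among the 474, and quantile normalization 614, of which 251 were.

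By the same rule the largest decrease of this set was in Lpl, the gene of lipoprotein lipase, which frees fatty acids from triglycerides. It stood at 61.5, 55.6 and 62.8 TPM in LPS+Pilo, at 112, 153 and 99.1 TPM in LPS and at 231, 146 and 169 TPM in Control. The difference from Control was -1.56 ± 0.19 (limma adjusted p = 8.35e-04) and that from LPS -0.98 ± 0.19 (limma adjusted p = 0.255). All LPS+Pilo libraries were below all others, and LPS overlapped Control. Csf1, the gene of the ligand of Csf1r, stood at 13.6, 14.7 and 14.4 TPM against 38.9, 28.8 and 31.0 TPM in Control and 15.5 to 24.4 TPM in LPS (-1.15 ± 0.17, limma adjusted p = 0.00313). Both Csf1 and its receptor gene were thus called lower against Control in LPS+Pilo, while in LPS neither passed (limma adjusted p = 0.0544 and 0.158). Directly between LPS+Pilo and LPS, Csf1 differed by -0.50 ± 0.17 (limma adjusted p = 0.560), and Csf1r did not pass either.

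Other lower genes were Cd28, a costimulatory receptor gene (-1.15 ± 0.22), and Tlr13, which encodes a receptor of bacterial ribosomal RNA (-1.11 ± 0.19). Id2, an inhibitor of basic helix-loop-helix factors, stood at 8.68, 5.83 and 6.68 TPM against 14.6, 15.7 and 14.9 TPM in Control (-1.01 ± 0.15, limma adjusted p = 0.00307). Its LPS libraries, at 10.3 to 13.1 TPM, lay between the groups. Further members of the disease-associated list belonged to this set: Gpnmb, a transmembrane glycoprotein gene, stood at 754, 662 and 747 TPM against 1527, 1242 and 1303 TPM (-0.91 ± 0.11, limma adjusted p = 7.31e-04), Lgals3, the galectin 3 gene, at 974 to 1047 TPM against 1444 to 1488 TPM (-0.55 ± 0.08), and Ctsd, the cathepsin D gene, at 1712 to 1956 TPM against 2513 to 2631 TPM (-0.51 ± 0.08). In the LPS libraries Gpnmb stood at 949 to 1125 TPM and Lgals3 at 1146 to 1321 TPM, between the other groups in both cases.

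Calls of 5 lower genes of the naming rule were less firm. Rgs1, a regulator of G protein signalling (-1.35 ± 0.31, limma adjusted p = 0.0221, range over alternatives 0.00755 to 0.0791), lost its call without Control replicates 2 or 3 or LPS+Pilo replicates 2 or 3 (0.0629 to 0.0791). Rpph1, the RNA of RNase P (-1.23 ± 0.33, limma adjusted p = 0.0460, range 0.0117 to 0.142), and Frmd4b (-1.20 ± 0.31, limma adjusted p = 0.0376, range 0.00180 to 0.138) lost theirs in several alternatives. For Rpph1 these were the omission of any 1 Control library, of LPS replicate 2 or of LPS+Pilo replicates 1 or 3 (0.0611 to 0.142), and also no level filter, no variance trend and median-ratio scaling (0.0839, 0.0612 and 0.0659). For Frmd4b they were the omission of Control replicates 1 or 3, of LPS replicate 1 or of any 1 LPS+Pilo library (0.0550 to 0.138), and also no level filter, a fit of only the 2 groups compared and the replicate block (0.0715, 0.0611 and 0.0554). Als2cl (-1.04 ± 0.24, limma adjusted p = 0.0225, range 0.00502 to 0.0862) lost it without Control replicate 1 or LPS+Pilo replicates 2 or 3, and Pbx4 (-1.02 ± 0.23, limma adjusted p = 0.0218, range 0.00903 to 0.0910) without Control replicates 2 or 3 or LPS+Pilo replicates 1 or 3. Il15, a cytokine gene at 0.94, 0.62 and 0.73 TPM against 3.12, 2.49 and 3.88 TPM (limma adjusted p = 0.0236, range 0.00452 to 0.0911), lost its call without Control replicate 3 or any 1 LPS+Pilo library.

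Among higher genes of the set, Fxyd2, which encodes a subunit that modulates the sodium pump, stood at 4.46, 14.97 and 5.36 TPM against 1.15, 0.97 and 0.53 TPM in Control and 1.06 to 2.38 TPM in LPS (2.14 ± 0.37, limma adjusted p = 0.00654). LPS+Pilo replicate 2 was far above the other libraries of its group. Bcl2l11, the gene of the pro-apoptotic protein BIM, stood at 23.54, 24.99 and 23.71 TPM against 10.3, 7.35 and 7.96 TPM (1.41 ± 0.24, limma adjusted p = 0.00593), with a wide LPS group of 10.01 to 22.01 TPM. Dusp5, a phosphatase gene that acts on ERK, stood at 17.8, 18.6 and 17.5 TPM against 9.02, 5.85 and 7.24 TPM (1.20 ± 0.20, limma adjusted p = 0.00592), with 7.75 to 13.9 TPM in LPS. The same ordering held for Cebpb, a transcription factor gene of macrophage activation, at 210, 271 and 193 TPM against 112, 79.3 and 108 TPM (1.17 ± 0.21, limma adjusted p = 0.00829) and 107 to 180 TPM in LPS.

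Acoxl (1.22 ± 0.23), a gene related to acyl-CoA oxidases, Il12rb1 (1.11 ± 0.20), a receptor subunit for IL-12 and IL-23, and the glycine transporter gene Slc6a9 (1.08 ± 0.18) completed the firmer increases. In each the LPS group lay between the others by its mean and none of the 3 differences between LPS+Pilo and LPS passed (0.79, 0.66 and 0.39, limma adjusted p = 0.502, 0.514 and 0.763). The calls of 3 higher genes depended on single libraries. Chac1, which degrades glutathione (1.75 ± 0.37, limma adjusted p = 0.0154, range 0.00143 to 0.0639), lost its call without Control replicate 3 or LPS+Pilo replicates 2 or 3. Cox6a2 (1.04 ± 0.22, limma adjusted p = 0.0169, range 0.00674 to 0.0744) lost it without LPS+Pilo replicates 1 or 3. Irf7, an interferon regulatory factor gene (1.08 ± 0.28, limma adjusted p = 0.0392, range 0.0170 to 0.115), lost it in 8 alternatives, among them each omission of an LPS+Pilo library (0.106 to 0.115), of Control replicates 2 or 3 (0.0583 and 0.0671) and of LPS replicate 2 (0.0584).

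**Figure D3:**
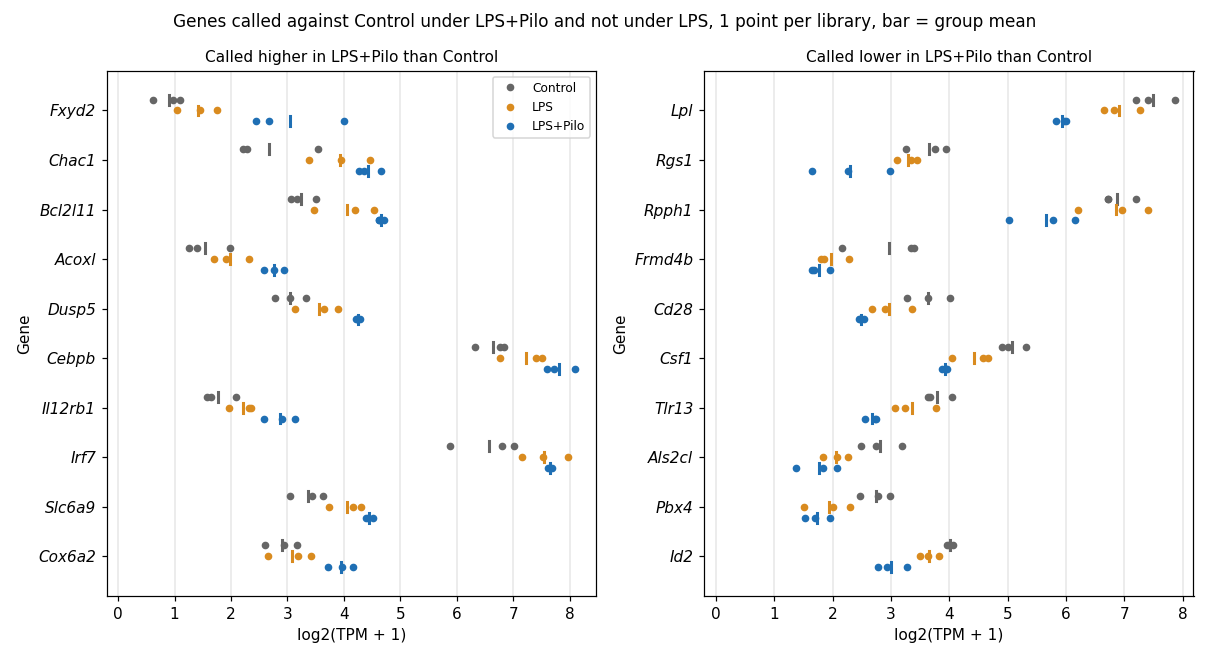
Level in log2(TPM + 1) (horizontal axis) of the 10 largest increases (left) and 10 largest decreases (right) among genes called against Control under LPS+Pilo and not under LPS, with 1 point per library and a bar at each group mean. The LPS libraries overlap those of Control for most of the genes, among them Lpl and Rpph1. They overlap those of LPS+Pilo for several, among them Frmd4b and Pbx4. LPS+Pilo replicate 2 stands apart for Fxyd2.

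Conversely, 205 genes (113 higher, 92 lower), or 23.5% of the LPS calls, differed from Control under LPS and were not called under LPS+Pilo. For 84 of them the adjusted p in LPS+Pilo lay between 0.05 and 0.10, and 1 passed the direct comparison of LPS+Pilo with LPS (55 had an unadjusted p under 0.05). The median difference from Control of the 113 higher genes was 0.70 in LPS and 0.42 in LPS+Pilo. Cybb, which encodes the catalytic subunit of the phagocyte NADPH oxidase, stood at 7.67, 6.06 and 6.19 TPM in LPS+Pilo against 8.53, 4.07 and 6.38 TPM in Control (0.10 ± 0.24, limma adjusted p = 0.847) and 11.5 to 17.4 TPM in LPS. Ifi211, an interferon-inducible gene, stood at 3.44, 2.14 and 3.57 TPM against 3.31, 1.04 and 2.32 TPM (0.38 ± 0.26, limma adjusted p = 0.443) and 5.98 to 6.94 TPM in LPS. In both genes LPS+Pilo overlapped Control and lay below every LPS library. The lysozyme gene Lyz2 had the same layout, at 233, 183 and 184 TPM against 241, 165 and 202 TPM in Control and 307 to 384 TPM in LPS. So had Tnfaip3, the gene of the NF-kB inhibitor A20, at 0.94, 0.85 and 0.63 TPM against 1.2, 0.38 and 0.53 TPM and 1.98 to 2.60 TPM in LPS. Directly, Cybb differed between LPS+Pilo and LPS by -1.07 ± 0.24 (limma adjusted p = 0.321), Ifi211 by -0.89 ± 0.26 (0.502), Lyz2 by -0.76 ± 0.15 (0.271) and Tnfaip3 by -0.84 ± 0.20 (0.366).

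C3ar1, the receptor gene of the complement fragment C3a, Isg20 and Rbpj did not pass in LPS+Pilo either (0.47 ± 0.17, 0.91 ± 0.25 and 0.82 ± 0.26, limma adjusted p = 0.132, 0.0535 and 0.0779), but all 3 passed in at least 1 alternative (lowest adjusted p 0.0250, 0.00939 and 0.0157). Among genes lower in LPS, Tmem158 stood at 37.6, 44.2 and 36.6 TPM in LPS+Pilo against 49.98, 44.29 and 45.03 TPM in Control and 21.1 to 26.9 TPM in LPS (-0.23 ± 0.12, limma adjusted p = 0.291). Nr4a1, an immediate-early nuclear receptor gene, stood at 12.8, 10.5 and 11.7 TPM against 9.38, 9.40 and 10.7 TPM in Control and 4.33 to 7.11 TPM in LPS (0.23 ± 0.17, limma adjusted p = 0.462). The remaining decreases of the naming rule, H2-Ke6, Psrc1, Rdm1 and Slc39a3, lay in LPS+Pilo at -0.55, -0.56, -0.35 and -0.51 from Control, against -0.84, -0.81, -0.71 and -0.69 in LPS. In place of 205 genes, the omission of Control replicates 1, 2 and 3 gave 334, 96 and 65, and that of LPS replicates 1, 2 and 3 gave 69, 41 and 310.

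A single entry was called in both comparisons with opposite signs, the assembled transcript MSTRG.18989, which has no symbol and was chosen after its values were seen. It stood at 3.17, 2.90 and 3.18 TPM in LPS+Pilo, at 0.98, 1.00 and 1.65 TPM in Control and at 0.28, 0.35 and 0.59 TPM in LPS. It differed from Control by 0.90 ± 0.17 in LPS+Pilo (limma adjusted p = 0.00830) and by -0.64 ± 0.17 in LPS (limma adjusted p = 0.0448), and between LPS+Pilo and LPS by 1.54 ± 0.17 (limma adjusted p = 0.0216). Its call against Control in LPS+Pilo held in every alternative, and its direct call was lost without any 1 LPS or LPS+Pilo library (adjusted p up to 0.169, from 0.0174).

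Markers of other cell types were mostly absent. In all 9 libraries 9 of 11 neuron, 8 of 9 astrocyte, 9 of 11 oligodendrocyte, 11 of 12 endothelial and fibroblast and 13 of 14 lymphocyte and granulocyte markers stayed under 1 TPM. At 0 throughout were, among others, Rbfox3 and Snap25 of neurons, Aqp4 and Gja1 of astrocytes, Mog and Olig2 of oligodendrocytes, Cldn5 of endothelium and Cd3e and Ly6g of blood cells. The summed neuron markers were 394 to 468 TPM in LPS+Pilo against 170 to 372 TPM in Control, nearly all of it Tubb3, a tubulin gene, at 383 to 457 TPM against 164 to 367 TPM (0.71 ± 0.25, limma adjusted p = 0.108). Syn1 was called higher, at 10.9 to 12.7 TPM against 4.98 to 5.65 TPM (0.98 ± 0.17, limma adjusted p = 0.00590). Their part in the other results was not tested.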

How the data were processed

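RNA came from a TRIzol extraction and went into TruSeq libraries, per the labels' protocols. The authors deposited 1 table of TPM with 55906 genes, given to 2 decimals, in which each library sums to 1000000. TPM are shares, so a rise in abundant genes lowers the rest. The submitters' processing notes name STAR 2.7.1a, fastp 0.19.5, DESeq2 1.24.0 and build GRCm39. How TPM were computed, whether strand was used and how reads with several matches were treated is not given in the sources used here, so reads of paralogs (such as the Pilr, Ccl and Bcl2a1 genes) or overlapping genes may be misassigned. The table holds no counts, so depth and counting error are unknown. Libraries are labelled biological replicates, but no separate cultures are named, so p-values measure the spread between these libraries.

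Symbols came from GENCODE M21 by identifier (52081 genes). Fold changes are on the log2(TPM + 1) scale, on which those of low genes are understated. The 9 libraries entered a single fit in limma 3.58.1 under R 4.3.3, with a mean for each group, variances moderated with a trend, 6 residual degrees of freedom, two-sided tests and Benjamini-Hochberg adjustment over the 11260 genes. The call threshold was an adjusted p under 0.05. The fit was also run on simulated data with the same spread in every group, unlike these libraries, so that run does not measure how accurate the calls are. Alternatives were other pseudocounts (0.1 and 0.5), filters, scalings, the replicate block, no variance trend, only the 2 groups compared, and the omission of each library.

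The members and the 35 gene lists were chosen with earlier results of these data known, so no list count is independent support. Named genes were taken from the 12 largest changes each way among called genes (mean in the higher group 5 TPM or more, no overlap and an established symbol), the 10 largest each way among those called in LPS+Pilo only, the 6 largest each way among those called in LPS only, up to 4 called members per list, and 28 genes that are always given. Some genes that the rule names are not reported here. Chosen after their values were seen were Gpnmb, Lgals3, Ctsd, Cd9, Cst7, Lilrb4a, Ccl3, Ccl5, Ccl9, Ccl12, Ccl6, Cxcl14, Osm, Il15, Nfkb1, Tnfaip3, Lyz2, Tlr4, Tubb3, Traf4, Cd72, Bcl2a1d, Cd180 and MSTRG.18989. Promoters were taken from RefSeq.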

Additional observations from a re-analysis of the deposited data

How the results depend on the processing

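The count of 1143 genes called in LPS+Pilo against Control was 1726 under quantile normalization and ran from 642 to 1286 when 1 library was left out. The 668 genes called in both comparisons became 419 when only the 2 groups compared were fitted and 1111 under quantile normalization, and ran from 349 to 708 without 1 library. The 474 genes called in LPS+Pilo only ran from 191 to 618 without 1 library, and 141 to 400 of the 474 were in the set then. Other settings moved this count by less than 1.5 times but changed its genes: 239 of the 474 were among the 558 under median-ratio scaling and 251 among the 614 under quantile normalization. The 205 genes called in LPS only became 67 when only the 2 groups compared were fitted, 323 under median-ratio scaling and 404 under quantile normalization, and ran from 41 to 334 without 1 library. The cause of these shifts was not tested. The other alternatives left these counts within 1.5 times.

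With the replicate number as a replicate block the counts were 1064, 615, 449 and 193. The labels do not say whether same-numbered libraries belong together. Correlations of same-numbered libraries' deviations from their group means ran from -0.225 to 0.165, and those of differently numbered libraries from -0.37 to 0.3. Deviations within a group of 3 depend on each other, so these values cannot decide whether the numbers pair the libraries. Under the block the direct calls of Igf1 (adjusted p = 0.110), Hspb7 (0.125), Plau (0.153) and MSTRG.18989 (0.0737) between LPS+Pilo and LPS were lost.

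Of 108 named genes called in LPS+Pilo against Control, 95 kept their call in every alternative that tested them. Direction changed for genes that did not pass: without 1 library the difference ran from -0.14 to 0.31 for Cybb, from -0.039 to 0.31 for Tnfaip3 and from -0.15 to 0.12 for Lyz2. It was below 0 for Cybb and Tnfaip3 without Control replicate 2, and above 0 for Lyz2 without Control replicate 1 or LPS+Pilo replicates 2 or 3. Without read counts, the precision at low TPM cannot be given.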

Other observations

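Of the 474 genes called against Control in LPS+Pilo only, 138 (63 higher, 75 lower) had an unadjusted p of 0.05 or more in LPS against Control, and 4 of them, chosen after their values were seen, had LPS libraries close to Control. Traf4, a gene of the TRAF adaptor family, stood at 39.8, 48.6 and 43.4 TPM in LPS+Pilo, at 29.7, 25.8 and 28.3 TPM in Control and at 30.2, 29.4 and 26.1 TPM in LPS. Its difference was 0.63 ± 0.11 from Control (limma adjusted p = 0.00604) and 0.60 ± 0.11 from LPS (limma adjusted p = 0.212). Cd180, which encodes a TLR-like receptor that modulates LPS responses, stood at 16.2, 16.0 and 15.6 TPM against 33.5, 23.6 and 26.7 TPM in Control and 26.1, 26.7 and 22.1 TPM in LPS (-0.76 ± 0.14 from Control, limma adjusted p = 0.00711; -0.61 ± 0.14 from LPS, adjusted p = 0.321).

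Cd72, an inhibitory receptor gene, stood at 6.08, 5.76 and 5.92 TPM against 9.62 to 10.07 TPM in Control (-0.66 ± 0.15, limma adjusted p = 0.0222, range over alternatives 0.0130 to 0.0856), with 8.51 to 13.04 TPM in LPS. Bcl2a1d, an anti-apoptotic gene with near-identical copies, stood at 16.5, 12.2 and 12.9 TPM against 21.7, 21.8 and 19.8 TPM in Control (-0.58 ± 0.13, limma adjusted p = 0.0216, range 0.0147 to 0.0881), with 19.7 to 23.1 TPM in LPS. The call of Cd72 was lost without Control replicates 2 or 3 or any 1 LPS+Pilo library, and that of Bcl2a1d without any 1 Control library or LPS+Pilo replicates 2 or 3. None of the 4 differences from LPS passed.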
